A study of Homo sapiens with 9 samples.

Results

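In Jurkat cells, 311 of 40703 accessible regions had a FAIRE-seq peak in the lists labelled SW DMSO and NS rottlerin and in neither the list labelled NS DMSO nor that labelled SW rottlerin. Jurkat clone E6-1 is a line of leukaemic human T cells. FAIRE-seq sequences the DNA left in the aqueous phase when crosslinked, sheared chromatin is extracted with phenol and chloroform, which favours DNA with few nucleosomes. The study set 8 FAIRE libraries and a total input library side by side to follow chromatin accessibility through a model of T cell memory. Peak lists of 4 libraries were analysed here, and the other 5 libraries were not analysed here.

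NS cells were not stimulated. SW cells had been stimulated with PMA and ionomycin for 4 h by the labels (the study's methods give a shorter time), and the stimulus was then withdrawn for 1 day. PMA with a calcium ionophore bypasses the T cell receptor, activating protein kinase C and raising calcium. Cells of the DMSO groups received the vehicle alone. Cells of the rottlerin groups were pretreated for 1 h with 15 µM rottlerin, used by the study as a protein kinase C inhibitor. Per the study, it preceded the stimulus and was washed away when the stimulus was withdrawn. Each group was 1 library from the same clone, so there was no replicate, no test between conditions and no p-value, and the intervals below cover counting error over regions only. Bulk FAIRE cannot tell apart a region open in few cells from one slightly open in many.

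The study's methods describe peak calling for vehicle-treated cells in NS, stimulated, SW and re-stimulated states, whereas the labels attach the 4 lists to NS and SW cells with DMSO or rottlerin. Joining the 4 lists gave 40731 regions, of which 28 lay outside chromosomes 1 to 22, X and Y and were dropped. The study's methods give this same total and the same number removed for the pooled regions of its vehicle-treated libraries. The 4 lists may therefore come from vehicle-treated cells in the NS, stimulated, SW and re-stimulated states. Any of the labels may then be wrong, that of SW DMSO included. Which list is which cannot be read from the files, so every list is called here by its label. Nothing below should be read as an effect of rottlerin or of stimulus withdrawal. A peak within 1 kb of the transcription start site (TSS) of the T cell genes CD3D, CD3E and LCK was in all 4 lists. None of the lists had one at the TSS of CD14 (monocytes) or ALB (hepatocytes), nor at that of the T cell gene CD2.

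The members were chosen by the presence and absence of peaks after overlapping or touching peaks of the 4 lists had been joined. They made up 0.764% of the regions and were the smallest of the 15 patterns of presence and absence. The other 5 patterns made of exactly 2 lists held between 514 and 3435 regions. The lists held 18977 (NS DMSO), 20132 (SW DMSO), 23835 (NS rottlerin) and 30409 (SW rottlerin) peaks, so that the members were missing from both the shortest list and the longest. A missing peak is a call below the threshold of the peak caller, not a measurement of closed chromatin.

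Accessible regions outside promoters include enhancers and insulators. CTCF, a zinc finger protein that binds a long motif, marks insulators and the anchors of chromatin loops, and its sites are often open in many cell types. AP-1, a dimer of FOS and JUN proteins, is induced by PMA and binds the motif TGAGTCA at many inducible enhancers. ETS, RUNX and GATA factors hold open much of the T cell regulatory landscape.

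Matches to the CTCF core set the members apart most clearly, and the sites of the strongest members outside exons are shown first for that reason. Each line gives the nearest gene, the position of the 12-base core in GRCh37 (hg19) and the strand on which it reads, with the core in capitals and 10 reference bases on each side.
ENSG00000260052 (chr16:48664503-48664514, minus strand): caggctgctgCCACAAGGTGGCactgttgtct
TENT5B (chr1:27371199-27371210, plus strand): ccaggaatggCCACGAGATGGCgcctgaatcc
PHLPP1 (chr18:60683670-60683681, plus strand): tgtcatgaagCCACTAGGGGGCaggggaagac
MDGA1 (chr6:37621871-37621882, minus strand): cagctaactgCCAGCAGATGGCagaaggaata
SELENOKP3 (chr6:119121852-119121863, minus strand): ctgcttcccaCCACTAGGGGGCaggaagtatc
PNPLA1 (chr6:36270400-36270411, plus strand): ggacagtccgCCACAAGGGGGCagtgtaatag
ENSG00000255790 (chr12:11639754-11639765, minus strand): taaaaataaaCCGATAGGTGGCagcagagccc
SAE1 (chr19:47628656-47628667, minus strand): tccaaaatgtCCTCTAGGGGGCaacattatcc
RNA5SP211 (chr6:106892977-106892988, plus strand): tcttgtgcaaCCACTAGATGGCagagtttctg
ENSG00000235464 (chr7:35560021-35560032, minus strand): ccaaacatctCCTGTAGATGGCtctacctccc
SPACA5 (chrX:47886271-47886282, minus strand): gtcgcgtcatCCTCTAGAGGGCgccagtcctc
SPACA5 (chrX:47886194-47886205, minus strand): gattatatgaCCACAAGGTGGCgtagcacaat
The 2 sites at SPACA5 lie in 1 member. The SELENOKP3, PHLPP1, TENT5B and ENSG00000235464 sites were intergenic, and the others were in introns.

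The strongest members, ranked by the lower of their 2 peak scores, are shown next as the central 100 bases of the region on the plus strand of GRCh37, with matches to the AP1, ETS, RUNX, GATA and CTCF patterns in capitals.
ENSG00000267649 (chr19:55727976-55728075): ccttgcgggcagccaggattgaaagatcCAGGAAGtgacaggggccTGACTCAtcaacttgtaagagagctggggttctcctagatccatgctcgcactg
ITGAD (chr16:31433036-31433135): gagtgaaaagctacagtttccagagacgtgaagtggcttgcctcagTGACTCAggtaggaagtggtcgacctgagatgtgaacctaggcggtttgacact
ENSG00000263494 (chr17:20088454-20088553): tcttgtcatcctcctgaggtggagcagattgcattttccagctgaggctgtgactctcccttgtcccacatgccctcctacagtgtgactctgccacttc
ENSG00000260052 (chr16:48664426-48664525): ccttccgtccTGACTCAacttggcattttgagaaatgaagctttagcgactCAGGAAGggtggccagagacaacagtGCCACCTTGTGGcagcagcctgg
ENSG00000257943 (chr12:95822385-95822484): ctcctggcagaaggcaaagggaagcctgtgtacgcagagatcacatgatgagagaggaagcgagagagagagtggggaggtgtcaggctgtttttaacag
TENT5B (chr1:27371156-27371255): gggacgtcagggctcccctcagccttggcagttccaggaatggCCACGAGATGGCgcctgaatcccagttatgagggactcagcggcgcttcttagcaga
HSD17B2-AS1 (chr16:82167753-82167852): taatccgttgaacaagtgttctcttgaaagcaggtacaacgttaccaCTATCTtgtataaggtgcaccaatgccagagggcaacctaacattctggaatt
PHLPP1 (chr18:60683619-60683718): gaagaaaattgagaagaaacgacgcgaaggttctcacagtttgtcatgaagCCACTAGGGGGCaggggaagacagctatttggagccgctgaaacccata
MDGA1 (chr6:37621894-37621993): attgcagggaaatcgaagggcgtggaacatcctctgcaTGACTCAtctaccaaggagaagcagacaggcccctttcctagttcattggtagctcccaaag
The windows at ENSG00000267649, ITGAD, ENSG00000260052 and MDGA1 hold the AP1 motif as its reverse complement TGACTCA. The ENSG00000260052 window also holds an ETS match and the CTCF core of the minus strand. The core of MDGA1 lies outside its window. No capitals appear in the windows of ENSG00000263494 and ENSG00000257943, which have none of these letters in their central 100 bases. The DISP3 member, the third by rank, lies in a 5UTR and is named without its sequence.

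The score of a peak is 10 times the negative log10 of its q-value with the decimals dropped, and fold enrichment is its signal over that of the input library. The strongest member, at the start of the noncoding gene ENSG00000267649 and 7.15 kb upstream of PTPRH (a receptor-type tyrosine phosphatase), scored 94 in the SW DMSO list and 75 in the NS rottlerin list. The member 2.18 kb upstream of ITGAD, an integrin alpha chain of leukocytes, scored 74 and 63. The DISP3 member, in the 5UTR 21 bp from the TSS, scored 65 and 62. In these 3 the SW DMSO score was the higher.

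In the remaining members of the top 10 the NS rottlerin score was the higher. The member next to ENSG00000263494, 20.5 kb from SPECC1, scored 62 in the SW DMSO list and 80 in the NS rottlerin list. The member near ENSG00000260052, 10.4 kb from N4BP1, scored 61 and 84, and that near ENSG00000257943, 44.9 kb from METAP2 (a methionine aminopeptidase), scored 60 and 66. Near these genes the SW rottlerin list had no peak closer than 6985 bp.

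Another 3 members of the top 10 had a score of 59 in the SW DMSO list. That of TENT5B, 31.9 kb from its TSS, scored 70 in the NS rottlerin list. That of HSD17B2-AS1, 36.0 kb from MPHOSPH6 (a cofactor of the RNA exosome), scored 69. That of PHLPP1, a phosphatase that dephosphorylates AKT, lay 110 kb from its TSS and scored 79. The last of the 10, in an intron 5.54 kb from MDGA1, scored 58 and 74. Of these 10, 4 held a CTCF match.

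The members as a set had low scores. In the SW DMSO list their score ranged from 11 to 115, with a median of 33 and quartiles of 25 and 46.5, against a median of 54 over all peaks of that list. In the NS rottlerin list it ranged from 12 to 113, with a median of 39 and quartiles of 27 and 50.5, against 57 over all peaks. Only 41 members were above the list median in SW DMSO and 50 in NS rottlerin. Fold enrichment had medians of 3.61 (2.28 to 6.74) and 3.72 (2.49 to 6.66), against 4.03 and 4.08 over all peaks. These values are tied to the rule, which keeps regions that were called in only some lists, and they are given as a description.

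The score was higher in NS rottlerin in 182 members (58.5%), higher in SW DMSO in 125 and equal in 4. The median ratio of fold enrichment, NS rottlerin over SW DMSO, was 1.02, and it passed 1.5 in either direction in 6 members. Across members the 2 scores had a Spearman's rank correlation of 0.37 and a Pearson correlation of 0.285 (n = 311 regions, which share their 2 libraries). The 6 members with the uneven ratios, singled out after their values were seen, are named in the next paragraph.

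Of these 6, the member near CERNA2 scored 115 in the SW DMSO list and 30 in the NS rottlerin list, and that at ABCD4, an ABC transporter of subfamily D, scored 105 and 32. The members near TSPAN16 (104 and 38) and SNORD45 (94 and 26, intronic and 69.8 kb from CAMK1D, a calcium/calmodulin-dependent kinase) were also the higher in SW DMSO. In contrast, the member near ENSG00000270691, 104 kb from TLE4, scored 31 and 113, and that 42 bp upstream of CALCOCO2, an autophagy receptor, scored 14 and 66. The CERNA2, ABCD4 and SNORD45 members held an AP1 match, whereas those at TSPAN16, ENSG00000270691 and CALCOCO2 did not.

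**Figure D1:**
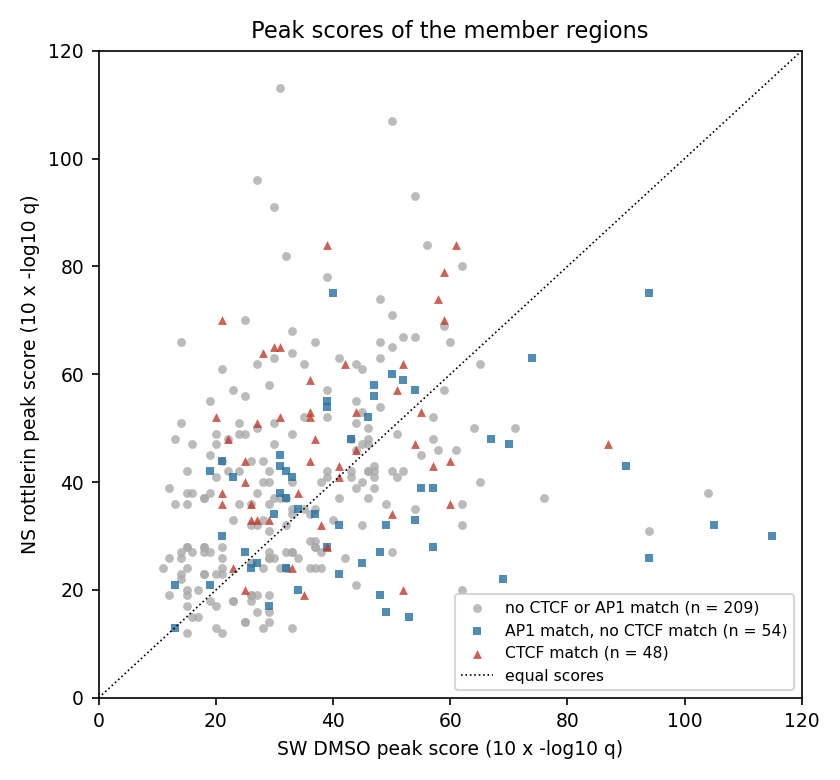
Peak score (10 times the negative log10 of q) of each of the 311 members in the NS rottlerin list (y axis) against the SW DMSO list (x axis); triangles mark a CTCF match, squares an AP1 match without one, circles neither, and the dotted line equal scores. Members lie on both sides of the line, 182 above it and 125 below, with most scores under 60.

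All 311 members consisted of a single peak in each list. The 2 peaks overlapped by a median of 170 bp (lowest 36 bp, 11 members under 100 bp), which covered a median of 96.7% of the shorter peak. Their midpoints lay a median of 24.5 bp apart. Merged members were narrow, with a median width of 238 bp against 294 bp for all regions, and covered 110 kb in all.

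Some members, and some regions just outside the rule, had scores near the threshold. The lower of the 2 scores of a member ranged from 11 to 75 with a median of 29, and was 20 or less in 75 members and 50 or more in 27. The weakest member, in an intron 4.18 kb from TRIM33, scored 11 and 24. Just outside the rule, of the 2883 regions in every list but NS DMSO, 74 had a SW rottlerin score of 20 or less (lowest 10, median 65). Of the 338 regions missing only from the SW rottlerin list, 20 had an NS DMSO score of 20 or less (lowest 13, median 48).

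Distances from members to peaks of the lists that lacked them were measured, without other regions for comparison. The nearest NS DMSO peak lay at a median of 26676 bp (closest 31 bp) and was within 1 kb of 9 members and within 10 kb of 86. The nearest SW rottlerin peak lay at a median of 18321 bp (closest 659 bp) and was within 1 kb of 12 members and within 10 kb of 113. For 14 members a peak of either list was within 1 kb, and for 124 within 10 kb.

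Members lay mainly in introns and between genes. By the GENCODE annotation of GRCh37, 178 (57.2%) were in introns, 56 (18%) intergenic, 30 (9.65%) in the 10 kb upstream of a gene and 20 (6.43%) in exons. Another 16 (5.14%) were in promoters (the 1 kb before a TSS), 9 in 5UTRs and 2 in 3UTRs. Classes were given in the order 5UTR, 3UTR, exon, intron, promoter, upstream and intergenic. Promoter sequence inside any transcript was therefore counted under an earlier class. With promoters placed first, 59 members (19.0%) were in promoters, against 26.0% of all regions. Introns and intergenic sequence together held 75.2% (Wilson 95% interval, 70.2 to 79.7), against 70.0% of all regions. The share was 78.4% among regions in both SW-labelled lists only, 74.6% in both rottlerin-labelled lists only and 72.6% in every list but NS DMSO, the 3 sets most like the members. Members with a centre within 1 kb of a protein-coding TSS numbered 48 (15.4%), against 27.4% of all regions and 15.7%, 21.9% and 23% of the like sets. The median distance to a coding TSS was 14 kb, against 8.58 kb over all regions.

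**Figure D2:**
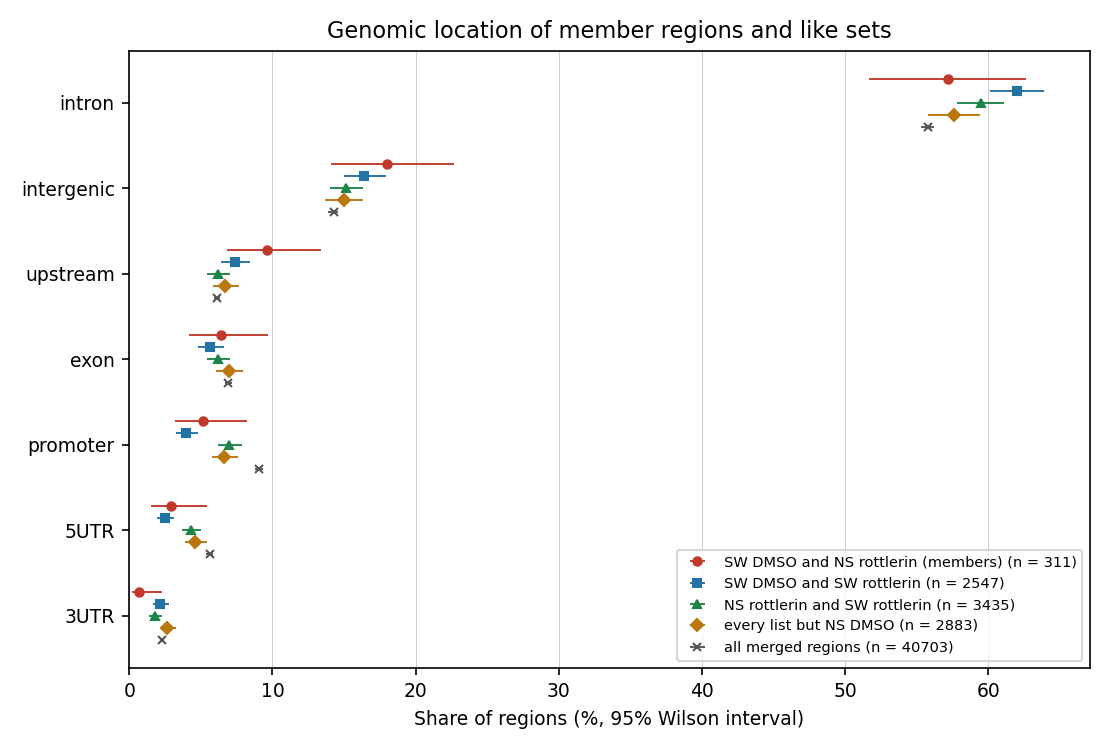
Share of regions (x axis, percent) in each annotation class (y axis) for the 311 members, the 3 like sets and all 40703 merged regions; points are shares and bars Wilson 95% intervals. Promoters, classed after UTRs, exons and introns, held 5.14% of members and 9.07% of all regions, while introns held 57.2% and 55.8%.

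The members spread over 24 chromosomes. Chromosome 1 held 33 members (10.6%, against 10.3% of all regions), chromosome 6 held 26 (8.36% against 6.73%) and chromosomes 2 and 8 held 22 each (7.07%, against 7.15% and 4.66%).

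Members were slightly poorer in GC than regions at large. Over 300 bp windows at the region centre the median GC content was 44% in members and 46.3% in all regions. CpG-island-like windows (GC over 50% and an observed to expected CpG ratio over 0.6) were 36 (11.6%, 8.48 to 15.6), against 21.0% of all regions. The like sets had 10.0% (both SW lists), 15.4% (both rottlerin lists) and 15.9% (every list but NS DMSO), so that the interval of the members included the first 2 and not the last.

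Matches to 16 motif families were searched on both strands of the same windows. The CTCF core was found in 48 members, or 15.4% (11.8 to 19.9). All merged regions had it in 5.75%. The 3 like sets had 5.03%, 5.53% and 5.06%, and none of their intervals reached that of the members. The members had the highest share of the 15 patterns. Regions in both DMSO-labelled lists only had the next highest share, 10.1% (7.8 to 13.0), an interval that overlapped the members'. NS DMSO with SW rottlerin followed with 9.09% (7.13 to 11.5) and the SW DMSO list alone with 8.64% (7.42 to 10.0), and the remaining 11 patterns ranged from 4.44% to 6.53%.

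**Figure D3:**
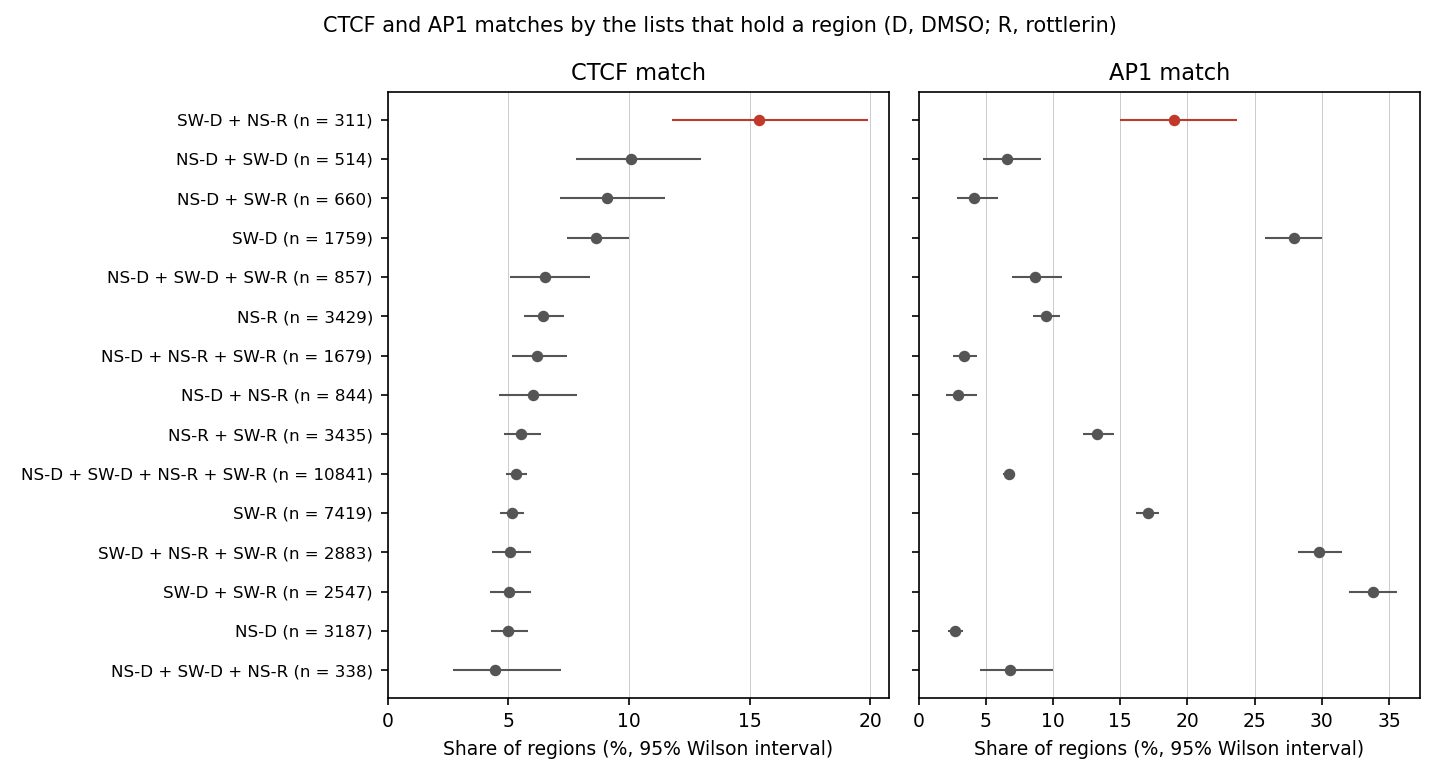
Share of regions with a CTCF match (left) and an AP1 match (right), in percent with Wilson 95% intervals, for each of the 15 patterns of lists on the y axis (NS-D, NS DMSO; SW-D, SW DMSO; NS-R, NS rottlerin; SW-R, SW rottlerin). The members, in red, have the highest CTCF share, 15.4%, and an AP1 share of 19.0%.

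Regions of like composition, score or width were compared next. In windows of 40 to 50% GC it was 16.9% of 130 members against 5.18% of all such regions. Among regions whose highest score was 30 to 60, comparisons added after the data were seen, it was 18.2% of 187 members (13.3 to 24.3) against 7.72% of all such regions, with 15.1% (11.2 to 20.1) in both DMSO-labelled lists only and 12.9% (10.7 to 15.4) in the SW DMSO list alone, whose intervals overlapped the members'. Among regions under 250 bp wide it was 26.2% of 172 members (20.2 to 33.2) against 9.74% of all, and the next patterns had 18.9% (14 to 24.9) and 18.8% (14 to 24.6). Narrow regions held the core more often in the other patterns too, and the part of score and width in the members' share was not tested.

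The cores were central. In the windows, 50 sites lay in 48 members, and 44 of the 50 (88.0%) were within 50 bp of the region centre, against 67.8% of sites over all regions. Members were narrower than all regions (median 238 bp against 294 bp), and position was not compared among regions of like width. Density was 7.88 sites per 100 regions and 100 bp within 100 bp of the centre and 0.464 from 100 bp to 1 kb. Over all regions these values were 2.62 and 0.491, and in every list but NS DMSO they were 2.29 and 0.54. Beyond 100 bp the density at members was thus near that at other regions. A stricter core matched 18 members (5.79%, 3.69 to 8.96) against 2.38% of all regions. The like sets had 2.55% (both SW lists), 2.27% (both rottlerin lists) and 1.94% (every list but NS DMSO). Within the members' interval lay the SW DMSO list alone (4.78%), both DMSO-labelled lists only (4.47%) and NS DMSO with SW rottlerin (4.24%). The same letters read backwards, without complement, matched no member (0 of 311, Wilson upper bound 1.22%) and 0.563% of all regions. Read that way they begin with CG, which the core does not need, so the comparison is not matched in composition.

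**Figure D4:**
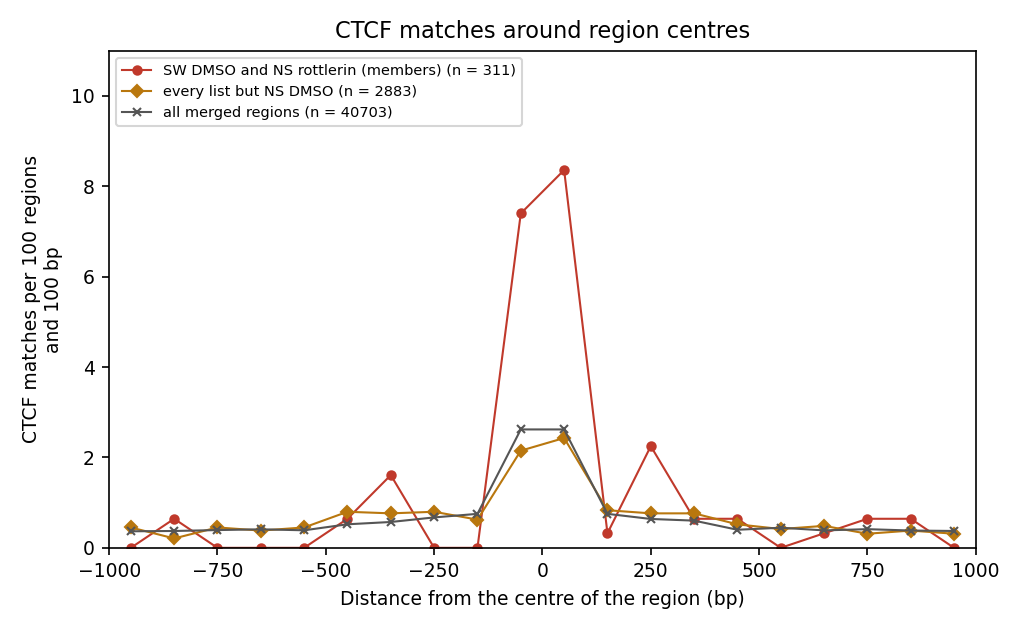
CTCF matches per 100 regions and 100 bp (y axis) in 100 bp bins by distance from the region centre (x axis, bp), for the 311 members, the 2883 regions in every list but NS DMSO and all 40703 regions. Within 100 bp of the centre the members have 7.88, against 2.62 over all regions, and beyond it the 3 lines lie close to one another in most bins.

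The 48 members with the core are set beside the other 263 as a description. Their median width was 209 bp against 255 bp, with a midpoint shift of 16 bp against 28 bp between their 2 peaks. Of the 48, 16 (33.3%) were intergenic against 40 (15.2%) of the 263, and 22 against 156 were in introns. None of the 48 was in a UTR, against 11 of the others. Their median distance to a coding TSS was 19.5 kb against 13.2 kb. Median scores were 36.0 (SW DMSO) and 46.5 (NS rottlerin) against 32.0 and 37.0, and the NS rottlerin score was the higher in 34 of the 48 against 148 of the 263. Only 5 of the 48 also held an AP1 match.

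One core, named after its values were seen, lay in the T cell receptor alpha locus, 782 bp before the TSS of the variable segment TRAV2. Its region scored 36 in the SW DMSO list and 44 in the NS rottlerin list, and its core is shown for its place in a locus particular to T cells.
TRAV2 (chr14:22179775-22179786, plus strand): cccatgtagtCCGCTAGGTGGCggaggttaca

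The AP1 motif TGAGTCA was in 59 members, or 19.0% (15.0 to 23.7), against 13.2% of all regions. This share lay between those of the like sets, which were 33.8% (both SW lists), 29.8% (every list but NS DMSO) and 13.3% (both rottlerin lists). The SW DMSO list alone had 27.9% and the NS rottlerin list alone 9.48%. The 8 patterns that include the NS DMSO list had between 2.67% and 8.63%.

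Members with the AP1 motif had median scores of 43.0 in the SW DMSO list and 37.0 in the NS rottlerin list, and members without it had 31.5 and 39.0. The NS rottlerin score was the higher in 28 of the 59 with the motif and in 154 of the 252 without. These scores belong to the peak calls that chose the members and are given as a description. Those with the motif included 14 intergenic members, 27 in introns and 10 in exons, and none was in a UTR.

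ETS, GATA and MYB were near their level in all regions. ETS (CCGGAAG or CAGGAAG) matched 77 members (24.8%, 20.3 to 29.8; all regions 24.0%), GATA (AGATA or TGATA followed by A or G) 133 (42.8%, 37.4 to 48.3; 42.5%) and MYB (AACTG or AACGG after T or C) 95 (30.5%, 25.7 to 35.9; 31.1%). NFAT, the calcium-dependent partner of AP-1, matched with TGGAAA in 76 (24.4%, 20 to 29.5) against 27.9% of all regions and 38.9% of regions in both SW lists only. The GATA share in both rottlerin lists only was 53.6%, above the members' interval. Among E-boxes, bound by basic helix-loop-helix and some zinc finger factors, CACCTG matched 20.6% of members (all regions 21.4%), CAGCTG matched 14.1% (17.1%) and CATCTG matched 21.5% (21.4%).

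For RUNX, SP/KLF and NFKB the level of all regions lay above the members' interval. RUNX (TGTGGTT or TGCGGTT) matched 45 members (14.5%, 11 to 18.8; all regions 19.7%), SP/KLF (GGGCGG), a motif of GC-rich promoters, 44 (14.1%, 10.7 to 18.5; 22.6%), and the NFKB pattern 11 (3.54%, 1.99 to 6.22; 7.28%). In the 130 members with windows of 40 to 50% GC, the shares were again below those of all such regions. With fewer members the intervals were wider, and each included that level. The shares were 17.7% (12.1 to 25.2) for RUNX (all such regions 24.8%), 3.08% (1.2 to 7.64) for SP/KLF (5.74%) and 2.31% (0.788 to 6.57) for NFKB (4.78%). Apart from CTCF and AP1, the members' interval for the remaining families included the level of all regions. TCF/LEF (CTTTGAT or CTTTGAA) matched 38 (12.2%, 9.03 to 16.3; 15.0%) and EGR (GCGTGGGCG or GCGGGGGCG) 6 (1.93%, 0.887 to 4.14; 2.51%). NR4A (AAAGGTCA) and CRE (TGACGTCA) were each in 1 member (0.322%, 0.0568 to 1.8), against 1.45% and 0.985% of all regions. CTCF or AP1 was found in 102 members (32.8%), against 18.5% of all regions, and none of AP1, ETS, RUNX, GATA, NFAT and CTCF in 58 (18.6%), against 21.6% of all regions. These patterns are short, some overlap, and a match is only a run of letters.

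**Figure D5:**
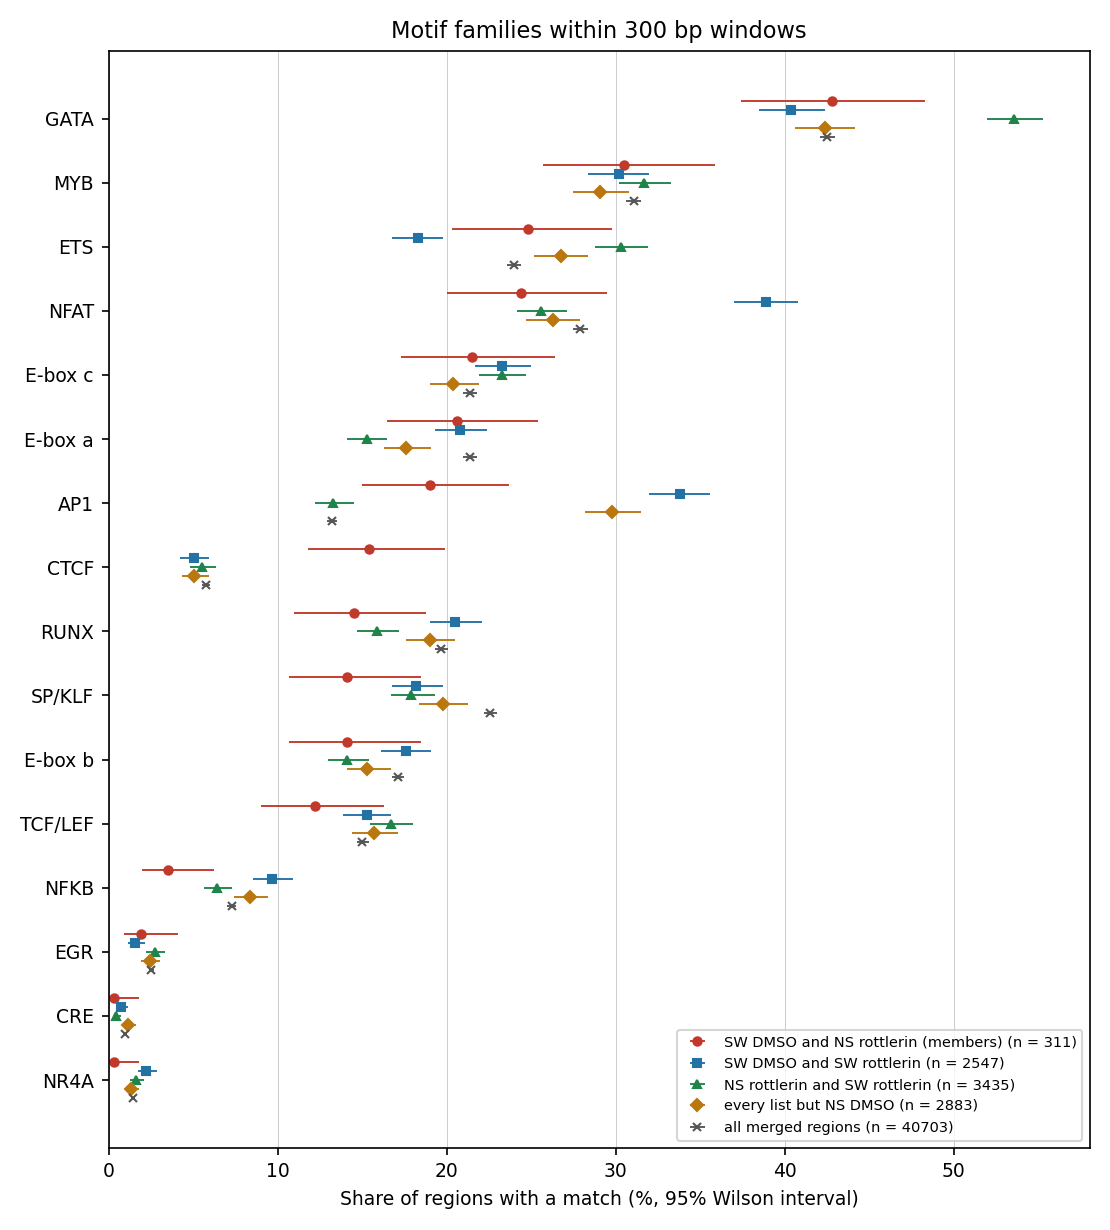
Share of regions with a match (x axis, percent) for the 16 families (y axis) in 300 bp windows of the 311 members, the 3 like sets and all 40703 regions; points are shares, bars Wilson 95% intervals, and E-box a stands for CACCTG, b stands for CAGCTG and c stands for CATCTG. CTCF is the family in which the members, at 15.4%, stand above all the other sets.

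The best examples of RUNX and GATA matches by score are given for comparison with the CTCF and AP1 members, with the motif in capitals and 20 bases on each side on the plus strand of GRCh37.
HELB (chr12:66697484-66697530): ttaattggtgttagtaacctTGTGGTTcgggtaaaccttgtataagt
C12orf42 (chr12:103673421-103673467): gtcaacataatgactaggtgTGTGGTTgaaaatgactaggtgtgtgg
ENSG00000263494 (chr17:20088421-20088466): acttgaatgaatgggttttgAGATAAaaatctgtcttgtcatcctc
ENSG00000260052 (chr16:48664548-48664593): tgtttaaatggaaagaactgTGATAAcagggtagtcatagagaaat
The HELB member scored 54 in the SW DMSO list and 67 in the NS rottlerin list, and that of C12orf42 scored 57 and 52.

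Of 20136 protein-coding genes, 490 (2.43%) had a member within 50 kb of a TSS, and 249 members (80.1%) were that close to one, against 80.6% of all regions. Among 208 genes of 6 lists on T cell function, 6 (2.88%) had a member, a share near that of all coding genes. These were 1 of 32 genes of T cell receptor signalling, 0 of 39 activation transcription factors, 1 of 34 lineage transcription factors, 0 of 41 cytokines, chemokines and their receptors, 2 of 29 genes of death, survival and the TNF superfamily, and 2 of 33 feedback regulators and microRNA hosts.

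CD247, which encodes the zeta chain of the T cell receptor complex, had a member at its start. The region (chr1:167487766-167487952) lay in the 5UTR, 18 bp from the TSS, and scored 52 in the SW DMSO list and 67 in the NS rottlerin list. A peak of the SW rottlerin list with a score of 34 lay 659 bp away, and the nearest NS DMSO peak 35037 bp away. Within 50 kb of the CD247 TSS there were 7 regions, of which 2 were in all 4 lists.

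DUSP1, a phosphatase that inactivates MAP kinases, had a member 6.48 kb upstream of its TSS (chr5:172204583-172204768), which scored 46 and 52 and held an AP1 match. It was 1 of 2 regions within 50 kb of that TSS, the other being in all 4 lists. The SOCS3 member lay 18.9 kb upstream of this inhibitor of cytokine signalling and scored 32 and 24. That region was in an intron at the start of another gene, 266 bp downstream of the PGS1 TSS. DUSP1 and SOCS3 are feedback regulators.

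The remaining listed genes had weak members. The CD27 member, 6.47 kb from the TSS of this costimulatory receptor of the TNF receptor superfamily, lay 131 bp from the TAPBPL TSS and scored 15 and 24. The CFLAR member, 34.4 kb from the TSS of this inhibitor of caspase-8, lay 135 bp from the CASP10 TSS and scored 21 and 23. The ZEB2 member, 27.9 kb upstream of this zinc finger repressor, scored 29 and 26. Each was 1 of 9 (CD27), 11 (CFLAR) and 5 (ZEB2) regions within 50 kb.

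A total of 8 coding genes had 2 members within 50 kb, and none had more. CAMK2G (a calcium/calmodulin-dependent kinase), NDST2 and ENSG00000272916 shared 1 pair, with scores of 37 and 48 (a CTCF match, nearest to SEC24C) and of 30 and 34 (an AP1 match). ARAP1 and STARD10 shared another, with scores of 29 and 19 and, for the member near ATG16L2 with a CTCF match, 57 and 43. MPHOSPH6 had members with scores of 59 and 69 and of 50 and 107. RBMS1, an RNA-binding protein gene, had members with scores of 24 and 49 and of 29 and 42, and ELOVL5, a fatty acid elongase gene, had weaker ones with 26 and 19 and with 16 and 15. Neighbouring genes that share a region are not separate observations.

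At coding starts, the strongest members after DISP3 were those of CCDC88B, CD247, TMEM9, DNAAF8, IRF2BP2, SPATC1L, STRIP2, STK26 and SBF1. The CCDC88B member, 59 bp upstream of this gene of lymphocyte function, scored 55 and 53 and held both a CTCF and an AP1 match. The TMEM9 member, 57 bp upstream, scored 50 and 71, and its nearest NS DMSO peak was 130619 bp away. The DNAAF8 member scored 50 and 65.

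The IRF2BP2 member, 181 bp upstream of this corepressor gene, scored 67 and 48 and held an AP1 match, as did the SPATC1L member, 384 bp upstream, which scored 47 and 56. The STRIP2 member, 79 bp upstream, scored 61 and 46. The STK26 member, 94 bp upstream of this serine/threonine kinase gene, scored 46 and 48, and the SBF1 member, 4 bp upstream, scored 45 and 61. The SW DMSO score was the higher in those of CCDC88B, DISP3, IRF2BP2 and STRIP2, and the NS rottlerin score in the other 6 of these 10.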

How the data were processed

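Per the labels and the study's methods, reads were trimmed (cutadapt), aligned to hg19 (Bowtie2), cleared of duplicates (Picard) and called as broad peaks against total input (MACS2), each library alone; versions are not given in the sources used here. The authors deposited 1 peak list per library, holding a score (10 times the −log10 q-value, decimals dropped), a fold enrichment (a ratio to input), and the −log10 p-value and −log10 q-value. The deposited lists reach q-values just under 0.1, whereas the study's methods give a cut-off of 0.05 or less. The 40731 joined regions came from the lists without that cut-off. Read depth is unknown.

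Peaks on chromosomes 1 to 22, X and Y were joined where they overlapped or touched, in Python 3.11.15 with pandas 2.3.3 and numpy 2.4.6; 28 regions elsewhere were dropped. Sequence came from GRCh37 with pysam 0.24.0 and annotation from GENCODE 44 lifted to GRCh37, each region taking 1 class. The joining of peaks, the lists given to each region and the search for the CTCF core were tested on simulated data. The annotation classes and the other motif families were not. Shares have Wilson 95% intervals. No test was run, since each group has 1 library.

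Members, gene lists and motifs were chosen with earlier results of these data known. Genes and sites named are the 10 members with the highest lower score, members within 50 kb of a listed gene, coding genes with 2 members within 50 kb, and the 10 strongest members at coding starts; others are named as chosen after their values were seen. Alternatives changed the joining, the thresholds, the windows and the distances.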

Additional observations from a re-analysis of the deposited data

How the results depend on the processing

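The number of members depended on the lists. It was 532 when all lists were trimmed by score to the length of the shortest (18977 peaks), 127 with the upper 50% of each list by score, 649 without the NS DMSO list and 3195 without the SW rottlerin list, against 311; by construction, dropping a list that must lack the region adds regions. The other 5 ways of joining or filtering gave between 256 and 316. The intron and intergenic share was 66.2% (all regions 61.4%) with promoters placed first, against 75.2%. The promoter share was then 19.0% (all regions 26.0%), against 5.14%. The CTCF share was 11.8% (all regions 6.25%) with lists of the same length, 26.2% in regions under 250 bp wide and 5.79% with the stricter core, against 15.4%; it was above that of all regions in every setting in which both were computed. The AP1 share was 27.7% (all regions 17.4%) at 40 to 50% GC, against 19.0%. Coding genes near a member numbered 150 within 10 kb and 305 when only the nearest coding TSS counted, against 490. Of 160 alternative values, 129 stayed within the interval of the reported share or within 1.5 times the reported count. No paired analysis was possible because each group has 1 library. Unknown depth limits every absence: a peak below threshold in a shallower library cannot be told apart from closed chromatin.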
